A study of Homo sapiens with 12 samples.

Results

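This report is about 10 human genes for alpha and beta tubulin, the TUBA3 copies TUBA3C, TUBA3D and TUBA3E, the alpha tubulins TUBA1A, TUBA1B and TUBA1C, and the beta tubulins TUBB2A, TUBB2B, TUBB3 and TUBB6. They were followed in LNCaP cells, an established androgen-sensitive line from human prostate cancer, across 4 drug treatments. Every probe annotated to one of the 10 symbols was taken, which gave 14 of the 47323 probes of an Illumina HumanHT-12 V4 array and 10 of the 20046 genes that its probes name singly. The genes were selected on results of these arrays, the response to R1881 among them, so every value that sets R1881 against vehicle is a description without a test. The same holds for the difference between the androgen responses with and without Torin 1.

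Torin 1 is an inhibitor of the kinase mTOR that acts on both of its complexes, and R1881 is a synthetic androgen that activates the androgen receptor. All cells were held for 48 h without steroids, in medium without phenol red and with charcoal-stripped serum, and were then treated for 48 h. The first group received 100 nM Torin 1 together with 10 nM R1881, the second 100 nM Torin 1 alone, the third 10 nM R1881 alone and the fourth the solvents ethanol and DMSO (vehicle). Each group had 3 arrays, and nothing in the labels says whether these came from separate cultures, so p-values measure the spread between these samples only, which may be technical.

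The microtubule is a hollow polymer of alpha and beta tubulin dimers that shapes the cell, carries transport and forms the mitotic spindle. Each partner is encoded by several genes with nearly the same protein product. Cells also tune tubulin RNA to need: a surplus of free dimers leads to decay of tubulin mRNA while it is being translated, through the factor TTC5. TUBA3C, TUBA3D and TUBA3E are alpha tubulin genes best known from testis, and TUBA1A, TUBA1B and TUBA1C are the alpha tubulins of dividing and neural cells. TUBB3 is the beta tubulin used as a neuronal marker, and is also studied in tumours that resist taxanes, drugs that bind beta tubulin.

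The promoters of the TUBA3 copies are shown first because their probes shared a pattern that set them apart from the other members. Each sequence runs 5′ to 3′ on the gene's own strand, in the RefSeq annotation of GRCh38.p14, with 250 bases before the transcription start and 50 after it. TUBA3D lies at chr2:131475869-131476168 (plus strand), TUBA3E at chr2:130198390-130198689 (minus strand) and TUBA3C at chr13:19181775-19182074 (minus strand). Capitals mark CCAAT, the box bound by the factor NF-Y, in the orientation read here.
TUBA3C: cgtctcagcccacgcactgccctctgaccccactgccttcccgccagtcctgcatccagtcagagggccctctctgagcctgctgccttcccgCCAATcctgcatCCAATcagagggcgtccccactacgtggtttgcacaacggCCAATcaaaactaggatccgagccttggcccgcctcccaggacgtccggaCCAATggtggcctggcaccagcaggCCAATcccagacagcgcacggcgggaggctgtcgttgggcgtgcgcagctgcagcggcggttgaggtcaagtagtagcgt
TUBA3D: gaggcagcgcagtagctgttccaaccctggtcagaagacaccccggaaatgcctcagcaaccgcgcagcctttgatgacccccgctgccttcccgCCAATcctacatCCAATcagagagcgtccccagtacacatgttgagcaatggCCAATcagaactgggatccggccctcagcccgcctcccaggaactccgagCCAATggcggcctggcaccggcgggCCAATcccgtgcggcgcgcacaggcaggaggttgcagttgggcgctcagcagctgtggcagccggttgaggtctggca
TUBA3E: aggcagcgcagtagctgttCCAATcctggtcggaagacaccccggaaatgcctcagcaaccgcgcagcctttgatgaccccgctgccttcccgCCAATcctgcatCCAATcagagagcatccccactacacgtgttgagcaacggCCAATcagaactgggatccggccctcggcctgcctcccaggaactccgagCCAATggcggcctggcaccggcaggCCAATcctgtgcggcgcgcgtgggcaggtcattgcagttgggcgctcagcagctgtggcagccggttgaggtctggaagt

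The motif CCAAT, searched on both strands, occurred 5 times in the TUBA3C window, 5 times in that of TUBA3D and 6 times in that of TUBA3E. It occurred at least once in 34.6% of the 35116 RefSeq promoters of that length, and at least 5 times in 0.359% of them. Counted from the start site, the TUBA3C boxes began at -157, -145, -105, -55 and -30 and those of TUBA3D at -155, -143, -103, -53 and -28. TUBA3E shared the TUBA3C positions and had a further box at -231. The windows of TUBA3D and TUBA3E were identical at 280 of 298 aligned bases (94%), while TUBA3C matched TUBA3D at 215 of 286 (75.2%) and TUBA3E at 216 of 285 (75.8%). The half-site AGAACA of the androgen receptor's binding element, searched on both strands, was in none of the 3 windows and in 14.8% of all promoters. This half-site followed after 3 bases by its reverse complement, matched exactly, was also in none of the 3 windows and in 0.00285% of all promoters. Inexact forms of the full element were not searched, so these counts do not show whether androgen response elements are absent. GGGCGG, the GC box, was also in none of the 3 windows and in 45% of all promoters. Among the other members with their own windows, TUBA1A had 2 CCAAT boxes, and TUBA1B, TUBA1C, TUBB2A, TUBB2B, TUBB3 and TUBB6 had 0 or 1 in each window. These counts describe letters in a window and say nothing about what binds there.

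**Figure D1:**
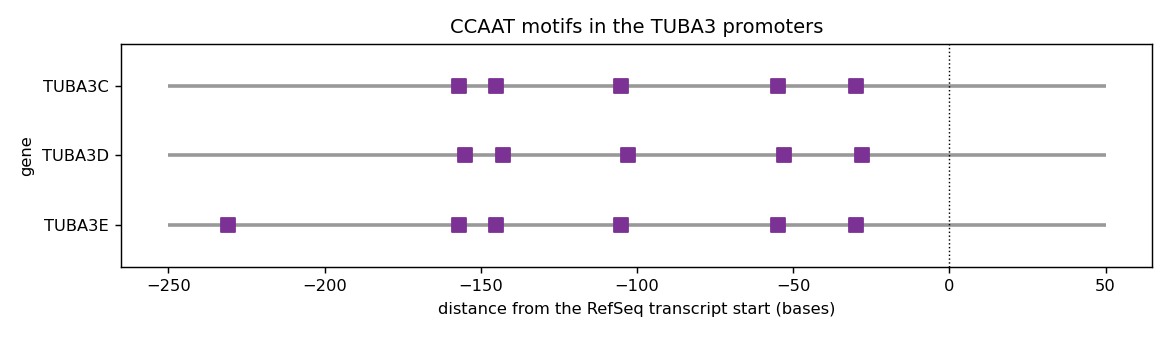
Map of the CCAAT boxes in the promoter windows of TUBA3C, TUBA3D and TUBA3E, with the distance from the transcription start in bases on the horizontal axis and a mark for each box. The 5 boxes nearest the start stand at nearly the same distances in all 3 windows, and TUBA3E has 1 more box farther upstream.

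The arrays as a whole were similar: 16681 to 18868 probes per array were detected above background, meaning a detection p-value under 0.05, and the median signal was 93.84 to 107.2. Of the 9 luminal prostate markers on the array, 9 were detected on all 3 arrays of both groups with R1881, and 7 in the Torin 1 and vehicle groups, where KLK2 and KLK3, the androgen-driven kallikreins, were not. Among 9 stromal markers VIM, ACTA2 and TAGLN were detected on all 3 arrays of every group. The collagens, DCN, LUM and PDGFRB were not detected on all 3 arrays of any group. Of 5 immune markers 2 (CD68 and HLA-DRA) were detected on all 3 arrays of every group. The stromal markers summed to a deposited signal of 1217 to 1229 in Torin 1 + R1881, 1561 to 1727 in Torin 1, 1260 to 1605 in R1881 and 1253 to 1386 in vehicle. These sums had no background correction and include the background of the markers that were not detected. Of 4 measured stromal genes 3 rose in Torin 1 against vehicle, against 14.5% of all genes, and 1 rose under median scaling. ACTA2 rose by 1.16 log2 there (adjusted p = 4.07e-06) but fell by 1.13 in Torin 1 + R1881 against R1881 (adjusted p = 2.78e-06). The part of these genes in the tubulin results was not tested. TMPRSS2, a target of the androgen receptor, was higher by 4.13 ± 0.085 log2 (SE) in Torin 1 + R1881 than in Torin 1 (adjusted p = 3.2e-13). CCND1, the gene of cyclin D1, fell by 0.38 log2 in Torin 1 against vehicle (adjusted p = 0.00415).

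Levels below are log2 signals after background correction and quantile normalization, and are compared between groups for 1 probe at a time, never between probes. Of the 14 member probes, 11 were detected on at least 3 of the 12 arrays and entered the fit of 20413 probes, 4 for the TUBA3 copies and 7 for the others. Of the 4 TUBA3 probes, 3 passed that filter through the arrays with R1881 alone, so no count over them supports anything about R1881. Adjusted p-values come from limma, with the Benjamini-Hochberg procedure run across the 20413 probes, and a probe is called under 0.05. In RNA from whole cultures, fewer cells that carry a transcript and less of it per cell cannot be told apart.

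TUBA3D has 2 probes. With ILMN_2215639 it measured 8.66, 8.68 and 8.62 in the 3 Torin 1 + R1881 arrays, 4.49, 4.35 and 4.42 in Torin 1, 10.70, 10.46 and 10.46 in R1881, and 4.40, 4.46 and 4.41 in vehicle. The deposited signal was 437.6 to 481.4 in Torin 1 + R1881, 98.34 to 105.2 in Torin 1, 1442 to 1759 in R1881 and 93.44 to 99.61 in vehicle, with detection p-values of 0.242 to 0.505 in Torin 1 and 0.257 to 0.362 in vehicle. On this probe the signal was thus above background in every array with R1881 and in none without it. The 3 levels with both drugs lay below the 3 with R1881 alone.

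The second TUBA3D probe, ILMN_2215640, was the only TUBA3 probe above background in all 4 groups. Its levels were 8.06, 7.91 and 7.82 in Torin 1 + R1881, 4.88, 4.86 and 5.04 in Torin 1, 9.71, 9.71 and 9.72 in R1881, and 5.79, 6.01 and 5.96 in vehicle. No groups overlapped, and their order was R1881, Torin 1 + R1881, vehicle and Torin 1 from high to low. Detection p was 0.0013 to 0.0234 on the Torin 1 arrays, near the threshold, and 0 on all others.

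TUBA3E (ILMN_1652464) measured 6.74, 6.60 and 6.71 in Torin 1 + R1881, 4.62, 4.33 and 4.28 in Torin 1, 8.44, 8.62 and 8.52 in R1881, and 4.40, 4.25 and 4.31 in vehicle. TUBA3C (ILMN_1679482) measured 5.42, 5.07 and 5.21 in Torin 1 + R1881, 4.26, 4.31 and 4.24 in Torin 1, 7.16, 6.94 and 7.04 in R1881, and 4.29, 4.26 and 4.32 in vehicle. Both were detected on all 6 arrays with R1881 and on none of the 6 without it, with detection p of 0.118 to 0.888 in Torin 1 and 0.373 to 0.823 in vehicle.

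**Figure D2:**
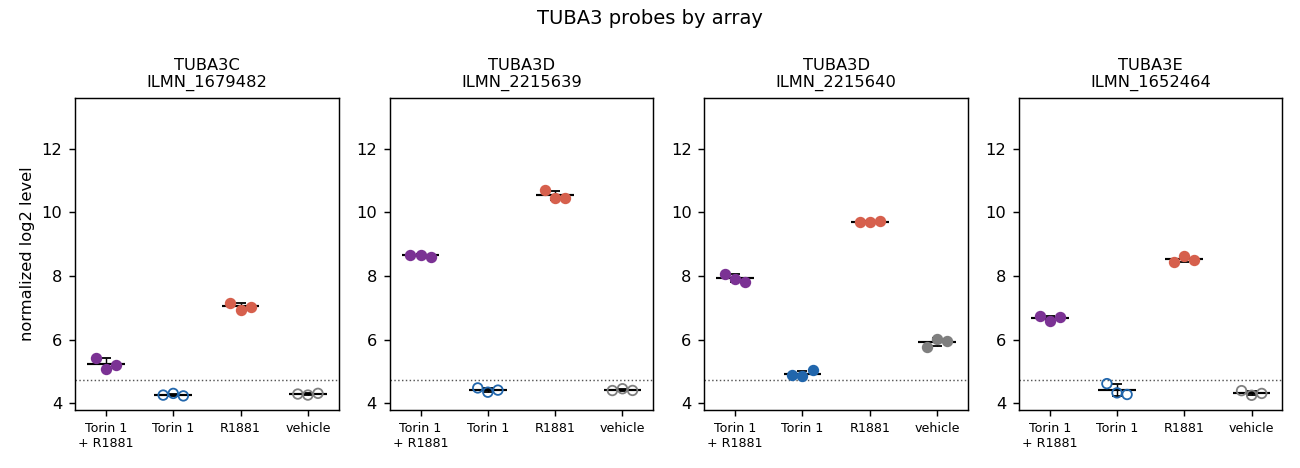
Normalized log2 level of the 4 TUBA3 probes on each of the 12 arrays, by group, with group means and SD bars (n = 3 per group). Filled points were detected (detection p under 0.05) and hollow points were not, and the dotted line is the mean over arrays of the lowest level of any detected probe. In all 4 panels R1881 is highest and Torin 1 + R1881 lies between R1881 and the groups without it.

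The first question was how Torin 1 changed the TUBA3 level that androgen had set. On all 4 TUBA3 probes every Torin 1 + R1881 array lay below every R1881 array. The R1881 arrays helped to choose these genes, so the differences are given as a description, with no p-value and nothing read from their number. TUBA3D averaged 8.65 ± 0.03 in Torin 1 + R1881 and 10.54 ± 0.13 in R1881 with ILMN_2215639 (SD, n = 3 each), a log2 difference of -1.89 ± 0.084 (SE), which is 3.71-fold lower. The second TUBA3D probe differed by -1.78 ± 0.092, which is 3.44-fold lower. TUBA3E was 3.59-fold lower and TUBA3C 3.52-fold lower.

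The 4 differences thus spanned 3.44-fold to 3.71-fold. Of 2 other androgen targets taken as checks, TMPRSS2 was 0.25 ± 0.085 log2 higher in Torin 1 + R1881 than in R1881 (adjusted p = 0.0316), and FKBP5, a chaperone gene driven by the receptor, differed by 0.15 (adjusted p = 0.269).

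The second question was how R1881 changed the TUBA3 level under Torin 1. Only ILMN_2215640 of TUBA3D was above background in both groups, and its test is given. The other 3 probes were kept through arrays with R1881 and were bound to differ, so they are described without a p-value. With the background correction used here, TUBA3D with ILMN_2215639 was at least 15.2-fold higher in Torin 1 + R1881 than in Torin 1. That bound sets the mean with both drugs against the lowest level of any detected probe on each Torin 1 array, and the other bounds were formed in the same way. The bound depends on the processing: under other ways of processing the log2 difference went down to 2.294, below the bound of 3.929. With ILMN_2215640 TUBA3D averaged 7.93 ± 0.12 in Torin 1 + R1881 and 4.93 ± 0.10 in Torin 1 (SD, n = 3 each), and rose 8.02-fold (adjusted p = 1.63e-11), in a comparison where 16% of all kept probes rose, 20.8% fell and 36.7% were called in all. TUBA3D was chosen with its response to R1881 known, so this p-value is not independent of that choice.

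With the background correction used here, TUBA3E was at least 3.89-fold (1.958 log2) higher in Torin 1 + R1881 than in Torin 1. Under other ways of processing its log2 difference went down to 0.918. TUBA3C was at least 1.42-fold higher with the background correction used here, on signals of 116.7 to 123.9 in Torin 1 + R1881 and 90.07 to 97.33 in Torin 1. These TUBA3C signals lay close to background. Its size rests on the processing, with a difference of 0.371 log2 without background correction and 0.251 in the authors' table, both smaller than that bound.

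Without androgen, Torin 1 could be read on only 1 TUBA3 probe, since the others were below background in both groups. TUBA3D (ILMN_2215640) averaged 4.93 ± 0.10 in Torin 1 and 5.92 ± 0.12 in vehicle (SD, n = 3 each), a fall of 1.99-fold (adjusted p = 4.07e-06). Without background correction that difference was -0.35 log2, and it was still called. Its other probe measured 4.42 in Torin 1 and 4.42 in vehicle, with neither group above background, so no fold was formed. The 2 TUBA3D probes thus differ in whether a signal above background was seen without R1881.

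As a description of what chose these genes, R1881 stood above vehicle by at least 57.1-fold for TUBA3D with ILMN_2215639 and 13.8-fold with ILMN_2215640. The bound was at least 14.1-fold for TUBA3E and at least 5.07-fold for TUBA3C. In log2 the 3 bounds were 5.836 for TUBA3D with ILMN_2215639, 3.82 for TUBA3E and 2.341 for TUBA3C. They hold with the background correction used here. Under other ways of processing the log2 differences went down to 3.99, 2.251 and 1.197 in the same order. The R1881 difference with Torin 1 less that without it was -1.88 ± 0.119 log2 (SE) for TUBA3D with ILMN_2215639 and -0.79 ± 0.13 with ILMN_2215640. It was -1.93 ± 0.14 for TUBA3E and -1.79 ± 0.136 for TUBA3C. For 3 of the 4 probes both groups without R1881 were at background, so this difference nearly equals the one between Torin 1 + R1881 and R1881.

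The 3 genes are near copies, and a probe for one can take up RNA of another. Probe sequences were not used here, so the share of each signal that belongs to each copy was not tested. A further near copy, TUBA3FP, a transcribed pseudogene that is no member, has 2 probes. One, ILMN_1652940, was not detected on any array, with signals of 87.09 to 106.5. The other, ILMN_2050434, gave signals of 3359 to 5453 on all 12 arrays and was not called in Torin 1 + R1881 against R1881 (0.06 log2, adjusted p = 0.659) or in Torin 1 + R1881 against Torin 1 (-0.21 log2, adjusted p = 0.131). Neither pseudogene probe showed the order of groups seen on the 4 TUBA3 probes.

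Over the 12 arrays the 4 TUBA3 probes correlated with each other at r of 0.937 to 0.99 (6 pairs), the 7 other member probes at 0.759 to 0.996 (21 pairs), and the 4 with the 7 at -0.227 to 0.548 (28 pairs). These are descriptions over the same arrays, whose 4 groups carry most of the spread. The 5 genes most like the mean TUBA3 profile by Pearson r over the 12 arrays, of 11509 compared, were ECI2 (0.9967), ALDH1A3 (0.9939), ADH1C (0.9936), HES6 (0.993) and DCAF6 (0.9903). ECI2, an enzyme of fatty acid oxidation, averaged 11.27 in Torin 1 + R1881, 10.46 in Torin 1, 11.8 in R1881 and 10.54 in vehicle. ALDH1A3, a retinaldehyde dehydrogenase, averaged 8.48, 7.34, 9.40 and 7.36 in the same groups, and HES6, a transcription factor of the HES family, 11.32, 9.82, 12.48 and 10.21. In all 3 genes, as on the TUBA3 probes, R1881 was highest and Torin 1 + R1881 next, an order that follows from picking them by this correlation.

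Each of the 5 TUBA1 probes, detected on all 12 arrays, was lower in every array with Torin 1 than in every array without it. The share of all kept probes that did the same was not counted, so nothing is read from that number. TUBA1A with ILMN_2148819 measured 11.61, 11.70 and 11.68 in Torin 1 + R1881, 11.44, 11.58 and 11.48 in Torin 1, 13.13, 12.99 and 13.07 in R1881, and 12.97, 13.00 and 13.06 in vehicle. With ILMN_1742981 it measured 8.0, 7.84 and 7.86 in Torin 1 + R1881, 7.55, 7.67 and 7.52 in Torin 1, 9.96, 9.51 and 9.26 in R1881, and 10.00, 10.11 and 9.96 in vehicle. On the first probe the R1881 and vehicle arrays overlapped, while on the second the R1881 arrays lay at or below the lowest vehicle array.

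TUBA1C, an alpha tubulin common in proliferating cells, measured 10.65, 10.53 and 10.52 in Torin 1 + R1881, 10.48, 10.34 and 10.35 in Torin 1, 12.73, 12.45 and 12.58 in R1881, and 12.54, 12.50 and 12.55 in vehicle with ILMN_1742167. With ILMN_3251341 it measured 11.31, 11.29 and 11.43 in Torin 1 + R1881, 11.16, 11.20 and 11.20 in Torin 1, 12.77, 12.66 and 12.80 in R1881, and 12.42, 12.51 and 12.47 in vehicle. TUBA1B (ILMN_1800261), the broadly expressed alpha tubulin, varied most between replicates: 9.10, 9.76 and 8.45 in Torin 1 + R1881, 8.86, 9.27 and 9.07 in Torin 1, 11.65, 11.35 and 10.72 in R1881, and 11.40, 10.91 and 10.96 in vehicle. Even so the arrays with and without Torin 1 were apart by a wide margin in all 3.

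Among the beta tubulins, TUBB3 (ILMN_1791726) measured 7.34, 7.37 and 7.20 in Torin 1 + R1881, 7.20, 7.21 and 7.37 in Torin 1, 7.55, 7.74 and 7.78 in R1881, and 8.10, 8.32 and 8.37 in vehicle. TUBB2A (ILMN_2038775), a beta tubulin close in sequence to TUBB2B, measured 5.76, 5.70 and 5.75 in Torin 1 + R1881, 5.61, 5.41 and 5.74 in Torin 1, 6.04, 6.46 and 6.42 in R1881, and 6.83, 6.71 and 6.38 in vehicle. For both genes vehicle was highest, the arrays with Torin 1 were lowest, and R1881 lay between, overlapping vehicle for TUBB2A but not for TUBB3.

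**Figure D3:**
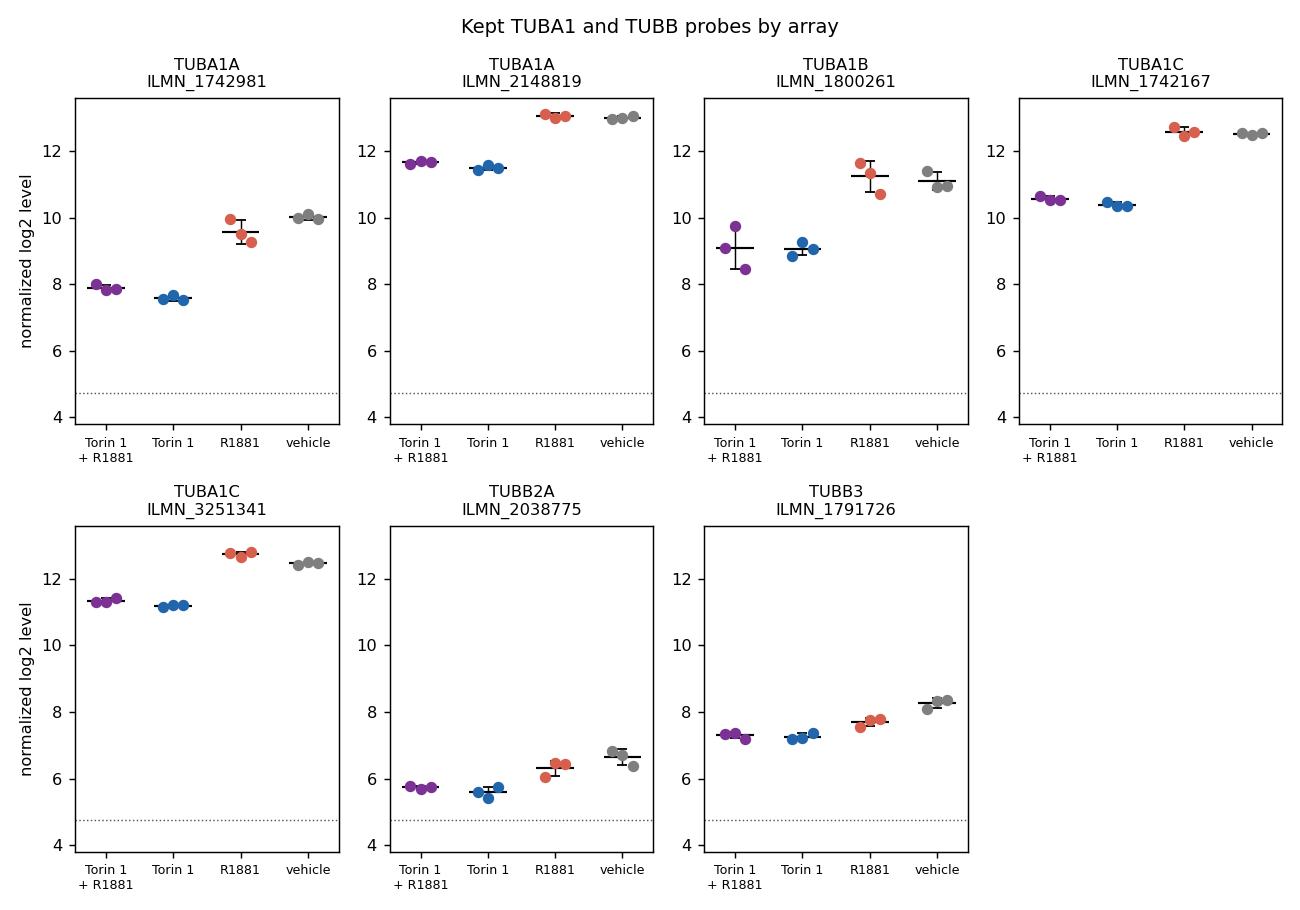
Normalized log2 level of the 7 kept probes of TUBA1A, TUBA1B, TUBA1C, TUBB2A and TUBB3 on each of the 12 arrays, by group, with group means and SD bars (n = 3 per group). The groups with Torin 1 lie below those without it in every panel, and the TUBB3 and TUBB2A panels also show R1881 between vehicle and the Torin 1 groups.

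The next comparison was of mTOR inhibition in the absence of androgen. In Torin 1 against vehicle 8 of the 11 kept member probes fell and 0 rose, while of all kept probes 11.7% fell, 13% rose and 24.7% were called in all. The 8 were the 7 probes outside the TUBA3 copies and TUBA3D with ILMN_2215640. The other 3 were TUBA3 probes below background in both groups, which could not show a fall. The vehicle arrays also helped to choose the members, so this count and the p-values below are not independent of that choice. The median change of the 7 was -1.51 log2, against 0.0198 over all kept probes.

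TUBA1A averaged 7.58 ± 0.08 in Torin 1 and 10.02 ± 0.08 in vehicle with ILMN_1742981 (SD, n = 3 each), 5.45-fold lower (adjusted p = 2.44e-08), and was 2.85-fold lower with ILMN_2148819 (adjusted p = 8.8e-09). TUBA1C was 4.41-fold lower with ILMN_1742167 (adjusted p = 9.03e-10) and 2.43-fold lower with ILMN_3251341 (adjusted p = 4.8e-08). The 2 probes of each gene thus agreed in direction and differed in size. TUBA1B fell 4.06-fold (adjusted p = 0.000206), TUBB2A 2.08-fold (adjusted p = 9.3e-05), and TUBB3 2.0-fold (adjusted p = 8.64e-06). The sizes of the dim beta tubulins rest on the background correction: without it TUBB2A differed by -0.49 log2 and TUBB3 by -0.73, and both were still called.

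Torin 1 was next compared in the presence of androgen. In Torin 1 + R1881 against R1881, 18.4% of all kept probes fell, 19.7% rose and 38.1% were called in all, and 7 of the 7 fell. The R1881 arrays also helped to choose the members, so nothing is read from that count. The p-values below are not independent of that choice. TUBA1B was 4.39-fold lower (adjusted p = 5.89e-05), TUBA1C 4.05-fold with ILMN_1742167 (adjusted p = 1.61e-09) and 2.64-fold with ILMN_3251341 (adjusted p = 1.56e-08). TUBA1A was 3.19-fold lower with ILMN_1742981 (adjusted p = 7.54e-07) and 2.64-fold with ILMN_2148819 (adjusted p = 1.59e-08). Among the beta tubulins, TUBB2A changed by -0.57 ± 0.136 log2 (SE, adjusted p = 0.00459) and TUBB3 by -0.39 ± 0.10 (adjusted p = 0.0074). Without background correction the differences were -0.26 log2 for TUBB2A and -0.27 for TUBB3, both still called.

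In Torin 1 + R1881 against Torin 1, 16% of all kept probes rose, 20.8% fell and 36.7% were called in all. Of the 7 probes outside the TUBA3 copies 0 were called by limma, and 1, TUBA1A with ILMN_1742981, had an unadjusted p under 0.05. TUBA1B differed by 0.03 log2 (95% interval -0.59 to 0.65, adjusted p = 0.941), TUBA1A with ILMN_2148819 by 0.16 (-0.003 to 0.33, adjusted p = 0.12), and with ILMN_1742981 by 0.32 (0.022 to 0.62, adjusted p = 0.089). These intervals do not show that R1881 left the genes alike, and 3 probes, 1 of TUBA1A and both of TUBA1C, were called under cyclic loess and in the authors' table, with rises of 0.22 to 0.30.

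Set side by side without a test, R1881 and vehicle differed by 0.05 log2 for TUBA1A with ILMN_2148819, 0.05 for TUBA1C with ILMN_1742167, 0.28 for TUBA1C with ILMN_3251341 and 0.15 for TUBA1B. The first 2 of these change sign when arrays are scaled by their medians (-0.112 and -0.0708), a scaling that moves the median of all probes to -0.144. The difference was -0.45 log2 for TUBA1A with ILMN_1742981, -0.57 for TUBB3 and -0.33 for TUBB2A. Of the 11 kept probes 5 were called higher and 2 lower, in a comparison where 13.3% of all kept probes were called higher, 16.5% lower and 29.9% in all. The comparison helped to choose the members, so nothing is read from this count.

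**Figure D4:**
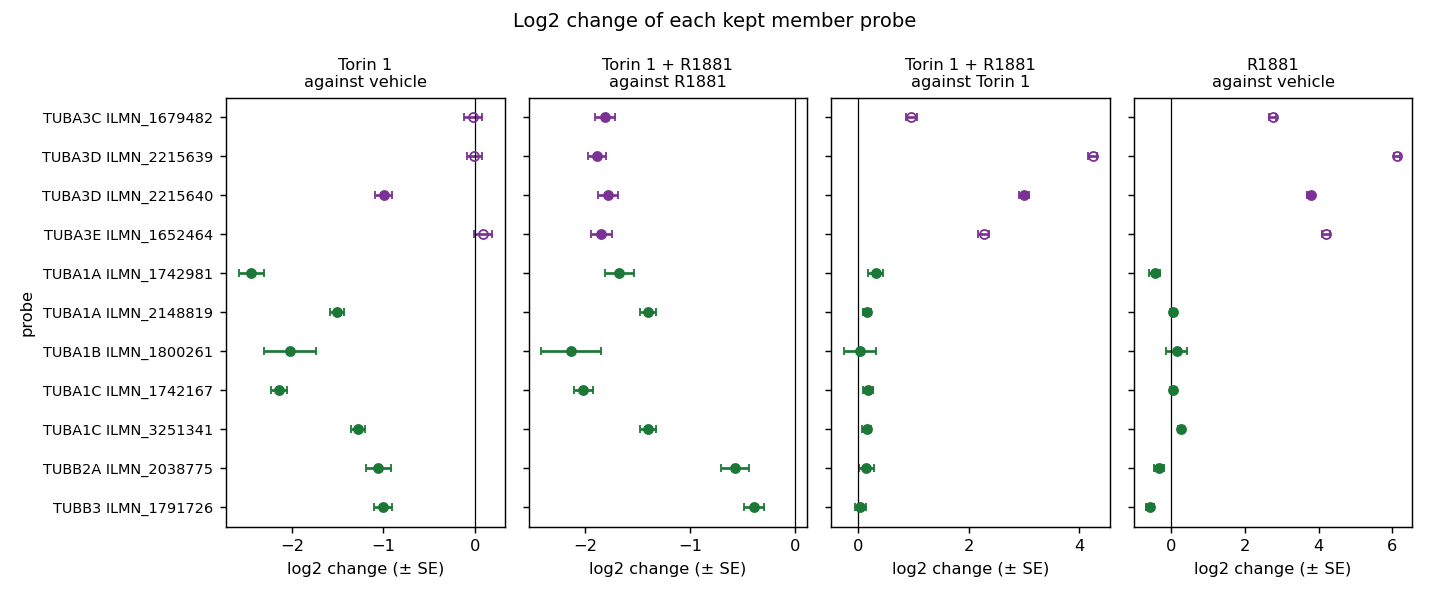
Log2 difference of each of the 11 kept member probes in the tested comparisons and in R1881 against vehicle, with SE bars. Hollow points mark a comparison in which one or both groups had no array above background, and the values of R1881 against vehicle are shown as a description. The TUBA1, TUBB2A and TUBB3 probes lie below 0 in both comparisons of Torin 1 and near 0 in Torin 1 + R1881 against Torin 1, where the 4 TUBA3 probes lie above 0.

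TUBB2B and TUBB6 had no probe that passed the filter. TUBB2B (ILMN_1680874) was detected on no array, with signals of 88.64 to 100.7 and detection p of 0.426 to 0.836. TUBB6 was detected on no array with ILMN_1702636, with signals of 88.92 to 109.1. With ILMN_1699489 it was detected on 1 of 12 arrays, of the vehicle group (detection p 0.0104), and signals were 93.82 to 111.4. No difference between groups could be seen for either gene at these signals, which is a limit of these probes and not a statement that the RNA was absent.

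Of 12 further tubulin genes 8 were measured, and TUBA8, TUBAL3, TUBB1 and TUBB8 had no probe past the filter. In Torin 1 against vehicle 5 fell, 1 rose and 2 were not called, with a median of -1.18 log2 against 0.0176 over all 11517 genes, of which 14.1% fell, 14.5% rose and 28.6% were called in all. TUBB4B, a major beta tubulin, fell by 1.72 log2 (adjusted p = 1.77e-08). TUBG1, the gamma tubulin that seeds microtubules, fell by 1.52 (adjusted p = 1.17e-08) and TUBA4A fell by 1.51 (adjusted p = 9.46e-08). TUBB, the widely expressed beta tubulin, fell by 1.37 (adjusted p = 9.55e-08). With androgen present, in Torin 1 + R1881 against R1881, TUBA4A fell by 2.48 (adjusted p = 5.07e-10) and TUBB fell by 1.88 (adjusted p = 3.01e-09).

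Between Torin 1 + R1881 and R1881 5 of the 8 fell, 1 rose and 2 were not called (median -1.08), where 21.2% of all genes fell, 21.9% rose and 43.1% were called in all. TUBE1, the epsilon tubulin of centrioles, was the gene that rose, by 0.47 log2 in Torin 1 against vehicle (adjusted p = 0.00673) and 0.37 in Torin 1 + R1881 against R1881 (adjusted p = 0.0153). The second of these calls was lost under median scaling, without R1881 replicate 2 and without Torin 1 + R1881 replicate 3. TUBD1 and TUBG2, the delta tubulin of centrioles and the second gamma tubulin, were not called in either. In Torin 1 + R1881 against Torin 1, 4 of the 8 fell and 2 rose (median -0.35), with TUBA4A at -1.36 log2, TUBB4A at -1.28 and TUBG1 at 0.68 with its brightest probe. The other 3 TUBG1 probes measured 0.20, 0.32 and -0.07 there and were not called. There 24.5% of all genes fell, 17.7% rose and 42.2% were called in all. In R1881 against vehicle 0 of the 8 were called higher and 3 lower, against 14.6% of all genes higher, 20% lower and 34.6% called in all.

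Of 15 measured genes that fold tubulin or tune its RNA, 0 rose and 3 fell in Torin 1 against vehicle (median -0.03 log2). Between Torin 1 + R1881 and R1881 5 rose and 4 fell (median -0.045), but 0 rose and 4 fell when arrays were scaled by their medians. Of all genes 28.6% were called in the first comparison and 43.1% in the second. TBCE, a cofactor that handles alpha tubulin, fell by 0.83 in Torin 1 + R1881 against R1881 (adjusted p = 1.08e-05). TTC5, the factor of tubulin RNA decay, measured -0.01 in Torin 1 against vehicle and rose by 0.65 in Torin 1 + R1881 against Torin 1 (adjusted p = 6.75e-05). The 9 calls numbered 5 without R1881 replicate 1, 4 without R1881 replicate 2, and 5 without Torin 1 + R1881 replicate 2 or replicate 3. The 3 calls of Torin 1 against vehicle numbered 5 without vehicle replicate 2.

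Among 14 measured enzymes that modify tubulin, 1 rose and 3 fell in Torin 1 against vehicle, and 4 rose and 2 fell in Torin 1 + R1881 against R1881, where 3 calls were left without R1881 replicate 3. These shares are near those of all genes called, 28.6% and 43.1%, and under median scaling 0 rose and 3 fell in the first comparison and 2 rose and 2 fell in the second. VASH2, which removes the final tyrosine of alpha tubulin, fell by 0.92 log2 in Torin 1 against vehicle (adjusted p = 0.000361). It was not called in Torin 1 + R1881 against R1881 (-0.22 log2, adjusted p = 0.246), where its partner SVBP rose by 0.84 (adjusted p = 5.03e-05). Of 31 measured microtubule-associated proteins, 4 rose and 6 fell in Torin 1 against vehicle, with a median of 0.016, and 9 rose and 5 fell in Torin 1 + R1881 against R1881, with a median of 0.081, again beside 28.6% and 43.1% of all genes called. Under median scaling 1 rose and 9 fell in the first comparison and 6 rose and 5 fell in the second.

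Among these proteins, PRC1, which bundles the central spindle, fell by 2.58 log2 in Torin 1 against vehicle (adjusted p = 4.07e-11). TPX2, a spindle assembly factor, measured -2.42, with detection on 1 of 3 Torin 1 arrays. STMN1, which binds free tubulin dimers, fell by 1.74 with its brightest probe (adjusted p = 3.86e-06), and its other probes measured -1.04 and -0.22. NUMA1, a protein of the spindle pole, rose by 0.71 in Torin 1 against vehicle (adjusted p = 0.000451) and by 1.03 in Torin 1 + R1881 against R1881 (adjusted p = 8.57e-06). The part of PRC1 and TPX2, which move with the cell cycle, in the tubulin result was not tested.

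**Figure D5:**
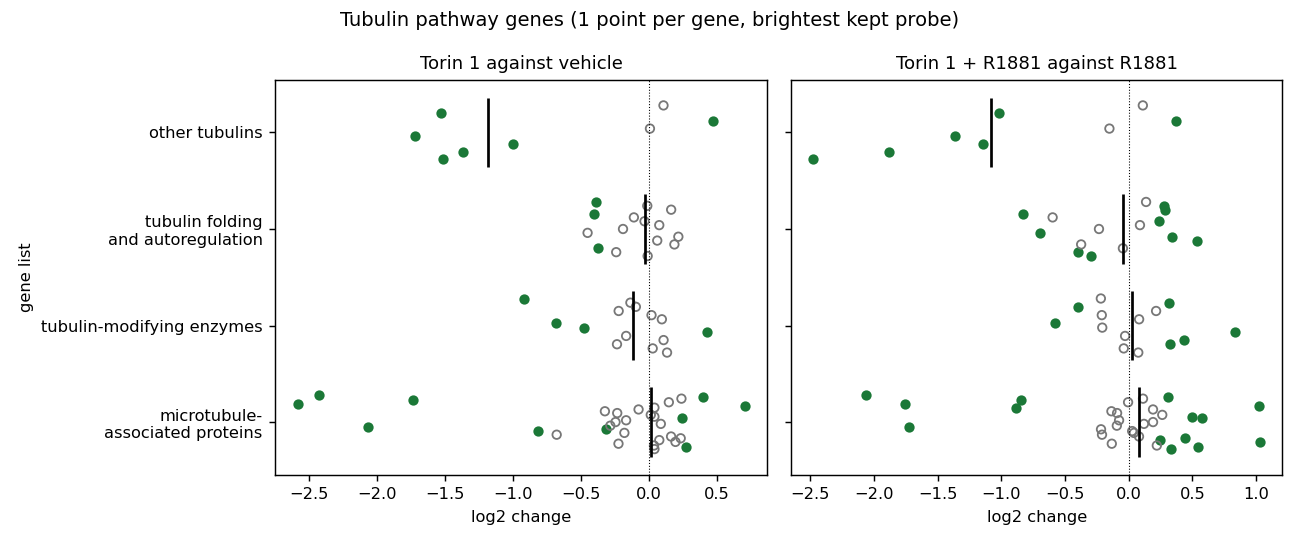
Log2 difference of each measured gene of 4 lists (other tubulins, tubulin folding and autoregulation, tubulin-modifying enzymes and microtubule-associated proteins) in Torin 1 against vehicle and in Torin 1 + R1881 against R1881. Filled points were called, and the vertical line is the list's median. The other tubulins lie mostly below 0 in both comparisons, with medians of -1.18 and -1.08, while the medians of the 3 other lists lie near 0.

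TUBB3 is also read as a neuronal marker, so neuronal and neuroendocrine genes were set beside it. Of 14 on the array, ENO2 and UCHL1 were detected on all 3 arrays in both groups with R1881, ENO2, NEFL and STMN2 in Torin 1, and ENO2 and NEFL in vehicle. CHGA, CHGB, SYP, NCAM1, INSM1, SCG2, SCG3, NEFM, DCX and SNAP25 had no probe past the filter. The deposited signal, without background correction, summed over all 14 to 1461 to 1475 in Torin 1 + R1881, 1472 to 1543 in Torin 1, 1329 to 1489 in R1881 and 1392 to 1471 in vehicle. Most of the 14 were not detected, so these sums are largely background and nothing is read from them. Of the 4 measured genes of the list 0 were called by limma in Torin 1 against vehicle, where TUBB3 fell, and 0 had an unadjusted p under 0.05. Of all genes 28.6% were called there, and with only 4 genes nothing is read from this count. Without vehicle replicate 1 the calls numbered 1. ENO2, a neuronal enolase, rose by 0.27 log2 in Torin 1 + R1881 against R1881 (adjusted p = 0.0302), where TUBB3 fell. That ENO2 call was lost under median scaling, cyclic loess, an offset of 50, no background correction and in the authors' table, and without R1881 replicate 1 or replicate 3 or Torin 1 + R1881 replicate 1. In R1881 against vehicle the measured genes of the list went both ways, with ENO2 at -1.29 log2, UCHL1 at 0.68, NEFL at -0.21 and STMN2 at -0.09. TUBB3 differed by -0.57 there, given without a test.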

How the data were processed

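Per the labels, biotin-labelled RNA was hybridized to 12 Illumina HumanHT-12 V4 arrays. The deposited table gives, per the file headers, a signal intensity and a detection p-value for each probe, and its values show no background subtraction or normalization between arrays. The authors also deposited a processed log2 table, with a normalization not given in the sources used here. Intensities were background-corrected by normexp (offset 16), quantile normalized and log2-transformed with limma 3.58.1 (R 4.3.3). Probes with detection p under 0.05 on at least 3 arrays were kept. A single limma model with 4 group means (8 residual degrees of freedom, empirical Bayes) was fitted to all kept probes, with Benjamini-Hochberg adjustment. The number of arrays and, for dim probes, the background limit the precision.

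Probes were named by the platform annotation, which can be old, updated through RefSeq (GRCh38.p14): 30113 had 1 symbol, 8 several and 17202 none. Lists use the brightest kept probe of each gene (11517 genes). Every member probe is reported. Named list genes come from the 3 smallest adjusted p of a comparison, and a few others were chosen after their values were seen. The members and lists were chosen with earlier results of these data known, so R1881 against vehicle and the TUBA3 differences of Torin 1 + R1881 from R1881 carry no p-value. Tests of the members against R1881 or vehicle use arrays that also entered that choice. The TUBA3D test of R1881 under Torin 1 is not independent of it either. The alternatives were 2 other normalizations, no background correction, an offset of 50, 2 other filters, the brightest probe alone, the authors' table, a replicate block and leaving out each array.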

Additional observations from a re-analysis of the deposited data

Results flagged for a closer look

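On 2 member probes the arrays with R1881 all lay above the mean of their comparison group with Torin 1 and all below it without Torin 1. For TUBA1A with ILMN_1742981 the log2 difference was 0.322 in Torin 1 + R1881 against Torin 1 and -0.449 in R1881 against vehicle, and these differ by 0.771. The other TUBA1A probe, ILMN_2148819, showed no such turn, with 0.16 and 0.05 in the same comparisons. For TUBB2A the log2 difference was 0.153 in Torin 1 + R1881 against Torin 1 and -0.334 in R1881 against vehicle, and these differ by 0.487. The difference between the effects was not tested for either gene. The single arrays of TUBB2A overlapped between the groups of both comparisons. Neither gene was called in Torin 1 + R1881 against Torin 1.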

How the results depend on the processing

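No called member probe lost its call or changed direction in a tested comparison under the 21 alternatives, 12 of which left out 1 array. Calls were gained 2 times without single arrays and 9 times under other alternatives, all by TUBA1A or TUBA1C in Torin 1 + R1881 against Torin 1. In Torin 1 against vehicle 8 probes and in Torin 1 + R1881 against R1881 11 probes, 4 of them TUBA3 probes given as a description, were called without any single array. In Torin 1 + R1881 against Torin 1 the 4 calls were all of TUBA3 probes. Calls there numbered 4 to 5 without single arrays, 7 under cyclic loess and 7 in the authors' table. Of the 4 TUBA3 probes 3 were kept through arrays with R1881 and were bound to differ, so that their calls lasted says nothing about R1881. The interaction of R1881 and Torin 1 on member probes, averaged over the 4 TUBA3 probes, was -1.599 log2, -1.644 to -1.567 without single arrays, -1.251 with no background correction, -1.424 with an offset of 50 and -1.359 in the authors' table. For 3 of these 4 probes both groups without R1881 were at background. ILMN_2215640 of TUBA3D, above background in all groups, gave -0.79 in the main fit. Without background correction TUBA3 differences shrink, by construction, since the background stays in both signals: TUBA3C in Torin 1 + R1881 against R1881 ranged from -1.914 to -0.846 over the alternatives. A fit with the replicate number as a block gave 8, 11 and 4 calls and -1.599. The numbers share no source in the labels, and arrays of the same number correlated no better than others (mean r of -0.00842 against 0.00419), with 3 of 12 arrays best with their own number. In the list of other tubulins, 3 genes were called in R1881 against vehicle, 5 with no background correction or an offset of 50, and 7 in the authors' table. Signals near background limit TUBA3C, TUBB2A, TUBB2B and TUBB6.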
